A study of Mus musculus with 24 samples.

Results

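The genes described here mark the otic neuroblast, the cell that leaves the epithelium of the early inner ear and becomes a sensory neuron of the cochleovestibular ganglion. They were chosen by name: Neurog1, Neurod1, Neurod4, Insm1, Nhlh1, Nhlh2, Isl1, Pou4f1, Dcx and Tubb3. Of these 10 genes, 9 were measured among the 15736 genes of the count table, and Neurod4 was not analysed here. The question was whether their messenger RNA differed between otocysts that made a secreted dominant-negative form of FGFR2b and control otocysts of the same litters.

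The otocyst is the closed epithelial vesicle from which the whole membranous inner ear forms. Neuroblasts are specified in its anteroventral wall, where FGF ligands and Notch signals are active, and they delaminate, divide and then differentiate in the ganglion beneath. FGFR2b is the epithelial splice form of FGF receptor 2, and its main ligands in the developing ear are FGF3 and FGF10. A soluble dominant-negative receptor of this form takes up ligand outside the cell.

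Each sample was RNA from otocyst epithelia of mouse embryos, dissected and pooled by genotype within 1 pregnant female, so that a litter gave a control pool (con) and an experimental pool (R2b). Control embryos carried Rosa26rtTA/+, which places the doxycycline-dependent activator rtTA at the broadly active Rosa26 locus. Experimental embryos carried Rosa26rtTA/+;Tg(tetO-s(dn)Fgfr2b)/+, that is, the same activator and a transgene under its control. Both groups were exposed to doxycycline: the mother received 1.5 mg/kg by intraperitoneal injection and then chow with 200 mg/kg. Exposure began at stage E9.75 (embryonic days after conception) and lasted 12 hours (E9.75+12h), began at E9.25 and lasted 24 hours (E9.25+24h), or began at E10.25 and lasted 24 hours (E10.25+24h). Tissue was thus taken at E10.25 after both of the earlier exposures and at E11.25 after the late one. There were 3 litters with values at E9.75+12h and 4 at each of the others, 22 libraries in all. The number of embryos in a pool was not given, and a pool is 1 replicate.

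Libraries held 18.7 to 28.2 M counts. Otic epithelium markers were read in all of them: 10 such markers summed to 1491 to 7186 CPM (counts per M counts, after TMM scaling). The lowest sum was that of the con pool of litter 4 at E9.25+24h. In the con pools of that exposure Oc90, which encodes an otoconial protein, stood at 649 to 1601 CPM. Pax2, an otic transcription factor, was at 106 to 126 CPM there. Reads of the transgene were followed through Fgfr2 and through Ighg1, whose constant-region sequence is read in libraries with this transgene. At E9.75+12h and E9.25+24h Ighg1 had 1 to 36 counts in con libraries and 19414 to 76096 in R2b libraries. At E10.25+24h the pair of litter 1 went against its labels: the library labelled con had 15754 Ighg1 counts and 909 CPM of Fgfr2, and the library labelled R2b had 1504 counts and 323 CPM. The library labelled con of litter 3 had 5106 Ighg1 counts, against 28 and 16 in those of litters 2 and 4. All libraries of that exposure keep their labels below, and group levels, fitted effects and list counts of that exposure are also given without litter 1. The library labelled con of litter 3 stays among the con pools in those values.

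A pair of pools also stood apart in neuronal genes and are named here before the results. The con pool of litter 4 at E9.25+24h held the highest value of the 4 con pools for 7 of 9 neuroblast genes and for 22 of 29 genes of a wider list of neuronal genes, against 27.4% of all genes. Stmn2, a microtubule regulator of growing axons, was at 31.3 CPM there and at 0.796 to 1.20 CPM in the 3 other con pools. That pool was also highest for 9 of 9 mesenchyme, 7 of 7 blood and 7 of 7 endothelium markers tested, and for 0 of 10 otic epithelium markers. The R2b pool of litter 4 at E10.25+24h was the highest R2b pool for 7 of 9 neuroblast genes and 25 of 30 genes of the wider list, against 27.3% of all genes, with Stmn2 at 58.9 CPM and at 4.65 to 6.11 CPM in the other R2b pools. It was highest for none of the mesenchyme, blood or endothelium markers. Genes of the hindbrain neural tube were low throughout. The 2 of 12 listed genes that were measured summed to at most 6.56 CPM in any library. Phox2a, a marker of visceral neurons, reached at most 1.32 CPM. The con pool of litter 4 at E9.25+24h was the highest con pool for 1 of these 2 hindbrain genes. Its log2 CPM there lay 2.73 above the median of the others. It was also highest for 2 of 5 neural crest and glia markers, by up to 3.07 in the same measure. The R2b pool of litter 4 at E10.25+24h was highest for 1 of the 2 and 1 of the 5. The part of such cells in the neuronal values was not tested.

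The 9 genes fall into 4 steps of the lineage. Neurog1 (ENSMUSG00000048904, chr13:56250478-56252163, minus strand) encodes the basic helix-loop-helix (bHLH) factor that specifies otic neuroblasts. Neurod1 (ENSMUSG00000034701, chr2:79452521-79456751, minus strand) encodes a bHLH factor that acts after Neurog1 and is needed for the survival of the delaminated cells. Insm1 (ENSMUSG00000068154, chr2:146221921-146225020, plus strand) encodes a zinc-finger factor of neural progenitors that are about to differentiate. Nhlh1 (ENSMUSG00000051251, chr1:172052292-172057573, minus strand) and Nhlh2 (ENSMUSG00000048540, chr3:102010076-102015492, plus strand) encode closely related bHLH factors of newly formed neurons. Isl1 (ENSMUSG00000042258, chr13:116298281-116309689, minus strand) encodes a LIM-homeodomain factor, and Pou4f1 (ENSMUSG00000048349, chr14:104461676-104467999, minus strand) a POU-homeodomain factor (BRN3A). Both mark sensory neurons, and Isl1 is also present in the otic epithelium itself. Dcx (ENSMUSG00000031285, chrX:143855842-143933311, minus strand) encodes doublecortin, a microtubule-associated protein of migrating young neurons. Tubb3 (ENSMUSG00000062380, chr8:123411424-123422015, plus strand) encodes the neuronal class III beta-tubulin. Positions are those of GENCODE M21 on GRCm38, and counts are summed over each gene. Tubb3 overlaps Gm20388 on the same strand and Neurod1 overlaps Cerkl, so the division of shared reads between these pairs is uncertain. Gm20388 kept to 127 to 203 CPM over all libraries and Cerkl to 0.520 to 4.10 CPM.

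Because 4 of the measured genes encode bHLH factors, which bind the E-box CANNTG, the RefSeq sequence (GRCm38.p6) from 250 bases before each start site was searched for CANNTG, a motif that reads the same on both strands. A window was found for 8 of the 9 genes; Insm1 had no entry. CANNTG was present in 5 of these 8 genes and in 66.2% of 32851 windows of the same length, so its presence does not set these genes apart. The Nhlh1 and Nhlh2 windows, from the related pair of bHLH genes, each hold the form CAGATG, which with its reverse complement CATCTG occurs in 14.4% of all windows and is one form of CANNTG. Neurod1 holds CATATG. Isl1 holds CAGCTG, found in 13.0% of all windows. Whether a form goes with a gene's levels was not tested. These 4 are shown 5′ to 3′ on the gene's own strand with the CANNTG matches in capitals, up to the first base annotated as transcribed: Neurod1 chr2:79456752-79456886 (minus strand), Nhlh1 chr1:172057597-172057846 (minus strand), Nhlh2 chr3:102009895-102010075 (plus strand) and Isl1 chr13:116309690-116309938 (minus strand).
Neurod1: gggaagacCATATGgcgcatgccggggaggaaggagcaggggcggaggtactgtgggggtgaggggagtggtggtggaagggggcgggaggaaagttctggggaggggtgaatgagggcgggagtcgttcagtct
Nhlh1: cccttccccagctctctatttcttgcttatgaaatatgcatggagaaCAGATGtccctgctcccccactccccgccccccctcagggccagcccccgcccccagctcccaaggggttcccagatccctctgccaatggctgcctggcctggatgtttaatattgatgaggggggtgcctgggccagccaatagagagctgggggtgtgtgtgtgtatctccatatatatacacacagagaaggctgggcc
Nhlh2: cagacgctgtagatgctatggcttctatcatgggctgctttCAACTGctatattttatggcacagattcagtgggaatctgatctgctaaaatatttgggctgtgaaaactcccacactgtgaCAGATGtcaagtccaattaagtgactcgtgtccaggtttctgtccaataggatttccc
Isl1: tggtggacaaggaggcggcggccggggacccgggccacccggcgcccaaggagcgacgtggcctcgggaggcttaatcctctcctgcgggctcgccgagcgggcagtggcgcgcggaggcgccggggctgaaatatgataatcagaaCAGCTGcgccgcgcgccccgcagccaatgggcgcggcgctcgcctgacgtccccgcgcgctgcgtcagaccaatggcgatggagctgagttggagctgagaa
The matches begin 242 bases before the RefSeq start of Neurod1, 203 before that of Nhlh1, 209 and 127 before that of Nhlh2, and 103 before that of Isl1. Pou4f1 holds CAGCTG at 118 and CAGGTG at 41 bases before its start. The windows of Neurog1, Dcx and Tubb3 hold no CANNTG, which says only that these letters are absent from these windows.

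In control otocysts the genes differed widely in level once divided by exon length. At E9.75+12h Tubb3 had the highest level, 36.0 ± 7.25 CPM per kb of exon (SD, n = 3), followed by Neurod1 at 32.4 ± 2.10 and Neurog1 at 16.0 ± 0.443. Tubb3 and Neurod1 did not differ beyond their spread, and Neurod1 lay above Neurog1 by far more than either SD. Isl1 stood at 10.32 ± 0.616, Insm1 at 6.73 ± 1.06, Dcx at 3.71 ± 0.107, Nhlh2 at 2.04 ± 0.436, Nhlh1 at 1.53 ± 0.476 and Pou4f1 at 0.836 ± 0.315 CPM per kb. Of these neighbours, Nhlh2 and Nhlh1 overlapped in their SDs, as Nhlh1 and Pou4f1 did. Pou4f1 and Nhlh1 rest on 51 to 104 counts per con library, the fewest of the 9.

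Across exposures, the mean control level of each gene other than Isl1 was lowest at E10.25+24h, and that of Isl1 was highest there. The SDs of Dcx and of Tubb3 overlapped between exposures. Those of Insm1, Nhlh1 and Pou4f1 also overlapped between E9.25+24h and E10.25+24h. Neurog1 was 10.21 ± 3.27 CPM per kb (SD, n = 4) in the con pools of E9.25+24h and 4.54 ± 1.66 in those labelled con at E10.25+24h. Neurod1 was at 18.7 ± 5.43 and 8.80 ± 2.07, while Isl1 was 9.94 ± 2.24 and 18.1 ± 1.73. Tubb3 was at 38.5 ± 17.4 and 33.2 ± 6.42. Without litter 1 the con levels of E10.25+24h were 4.56 ± 2.04 for Neurog1, 9.03 ± 2.47 for Neurod1, 17.7 ± 1.82 for Isl1 and 30.3 ± 3.23 for Tubb3 (SD, n = 3). These are descriptions without a test, because each exposure was sequenced as a separate library set, and age, exposure and library set cannot be told apart. In such bulk pools, fewer neuroblasts and less RNA per neuroblast cannot be told apart either.

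**Figure D1:**
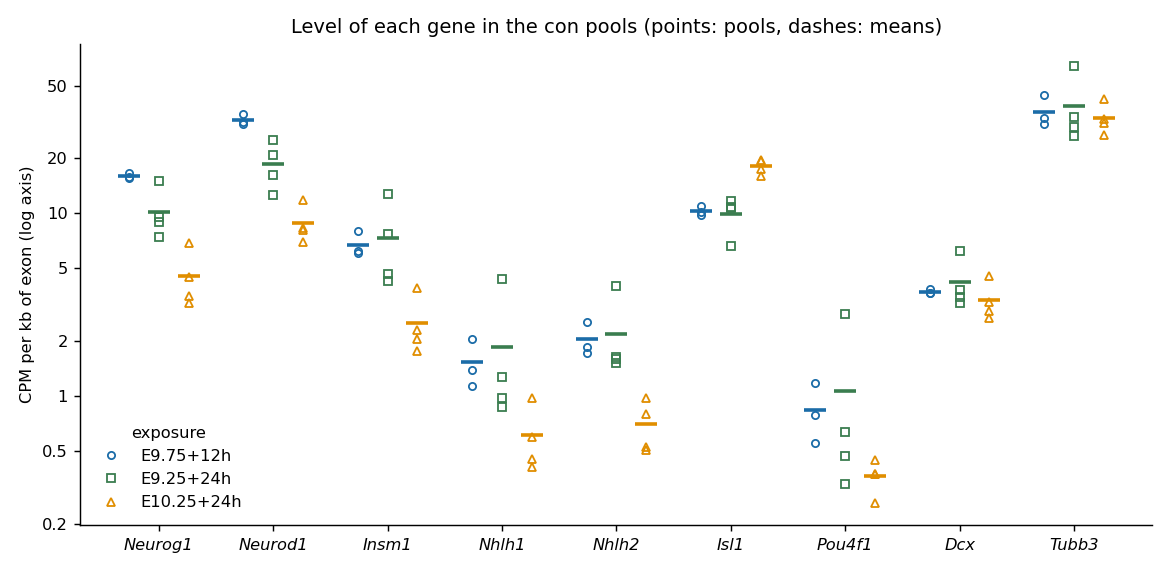
Level of each gene in the control pools, in CPM per kb of exon on a log axis, for the 3 exposures. Open symbols are single pools and dashes are means of 3 pools at E9.75+12h and of 4 pools at the other exposures. The mean of each gene other than Isl1 is lowest at E10.25+24h, and that of Isl1 is highest there. At E9.25+24h 1 pool lies above its group in Nhlh1, Nhlh2 and Pou4f1.

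After 12 hours of exposure from E9.75, specification, early differentiation and cytoskeletal genes of the neuroblast were higher in otocysts with the transgene. By edgeR's quasi-likelihood test with Benjamini-Hochberg adjustment over all genes (adjusted p under 0.05), 6 of 9 genes rose and none fell: Neurog1, Neurod1, Insm1, Nhlh1, Dcx and Tubb3. Over all 14882 genes tested at this exposure, 20.0% passed in either direction, and 35.0% had an unadjusted p under 0.05. The median log2 fold change of the 9 genes was 0.63, beside 0.011 for all genes tested. Values in each pool are given below for litters 1, 2 and 3 in that order.

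Neurog1 stood at 27.8, 26.6 and 26.5 CPM in the con pools and at 49.2, 49.1 and 41.1 CPM in the R2b pools. Each R2b pool lay above all con pools, and the log2 fold change was 0.78 (SE 0.11, adjusted p 0.00144). Neurod1, the next factor of the lineage, stood at 84.0, 94.9 and 86.5 CPM in con and 127, 138 and 117 CPM in R2b pools. These groups did not overlap either, with a smaller log2 fold change of 0.53 (SE 0.10, adjusted p 0.00492). Insm1 was at 19.2, 18.8 and 24.7 CPM in con and 37.5, 35.0 and 36.7 CPM in R2b pools. Its groups were separate too, with a log2 fold change of 0.80 (SE 0.13, adjusted p 0.00254).

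The pair of NHLH genes was less certain. Nhlh1 stood at 3.43, 2.78 and 5.06 CPM in con and 5.90, 7.83 and 5.82 CPM in R2b pools, and the con pool of litter 3 nearly reached the R2b range. Its log2 fold change was 0.80 (SE 0.25, adjusted p 0.0464), and with the litter as a block the adjusted p was 0.0998, so that 5 of 9 genes passed there, beside 11.9% of all genes. Nhlh2 stood at 10.1, 9.34 and 13.8 CPM in con and 15.0, 23.2 and 12.9 CPM in R2b pools. The groups overlapped, since litter 3 had the highest con and the lowest R2b value, and the log2 fold change of 0.63 (SE 0.23, adjusted p 0.0766) did not pass. Without the con pool of litter 3 the adjusted p of Nhlh2 was 0.0479, beside 15.7% of all genes called. By DESeq2 the adjusted p of Nhlh2 was 0.0364, and 7 of the 9 genes passed, beside 3541 of 14206 genes.

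The sensory neuron identity genes did not pass the test. Isl1 stood at 40.2, 38.8 and 43.5 CPM in con and 39.2, 33.7 and 34.5 CPM in R2b pools, slightly lower in R2b in each of the 3 litters and with overlapping groups. Its log2 fold change was -0.19 (SE 0.11, adjusted p 0.250). Pou4f1, at 2.57, 3.66 and 5.48 CPM in con and 5.14, 4.58 and 4.54 CPM in R2b pools, differed by less than its spread, with a log2 fold change of 0.28 (SE 0.27, adjusted p 0.487). Pou4f1 rested on 51 to 121 counts per library.

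The young neuron genes rose. Dcx was at 48.5, 46.0 and 46.4 CPM in con and 68.9, 81.7 and 66.8 CPM in R2b pools, with separate groups and a log2 fold change of 0.63 (SE 0.11, adjusted p 0.00326). Tubb3 stood at 61.8, 57.4 and 82.7 CPM in con and 155, 130.1 and 123 CPM in R2b pools. Its groups were also separate, and its log2 fold change of 1.02 (SE 0.14, adjusted p 0.00125) was the largest of the 9 genes at this exposure. R2b pools lay above all con pools for 6 of 9 genes, beside 19.8% of all genes.

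These calls depended on which libraries entered the fit. Without litter 1, 2 of 9 genes passed, Tubb3 at an adjusted p of 0.0419 and Neurog1 at 0.0484, beside 2.92% of all genes, while the log2 fold changes of Insm1, Dcx and Neurod1 were 0.72, 0.68 and 0.49. With all 22 libraries sharing 1 estimate of spread, Tubb3 alone passed (adjusted p 0.0408), beside 29.1% of all genes, and that of Neurog1 was 0.110.

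**Figure D2:**
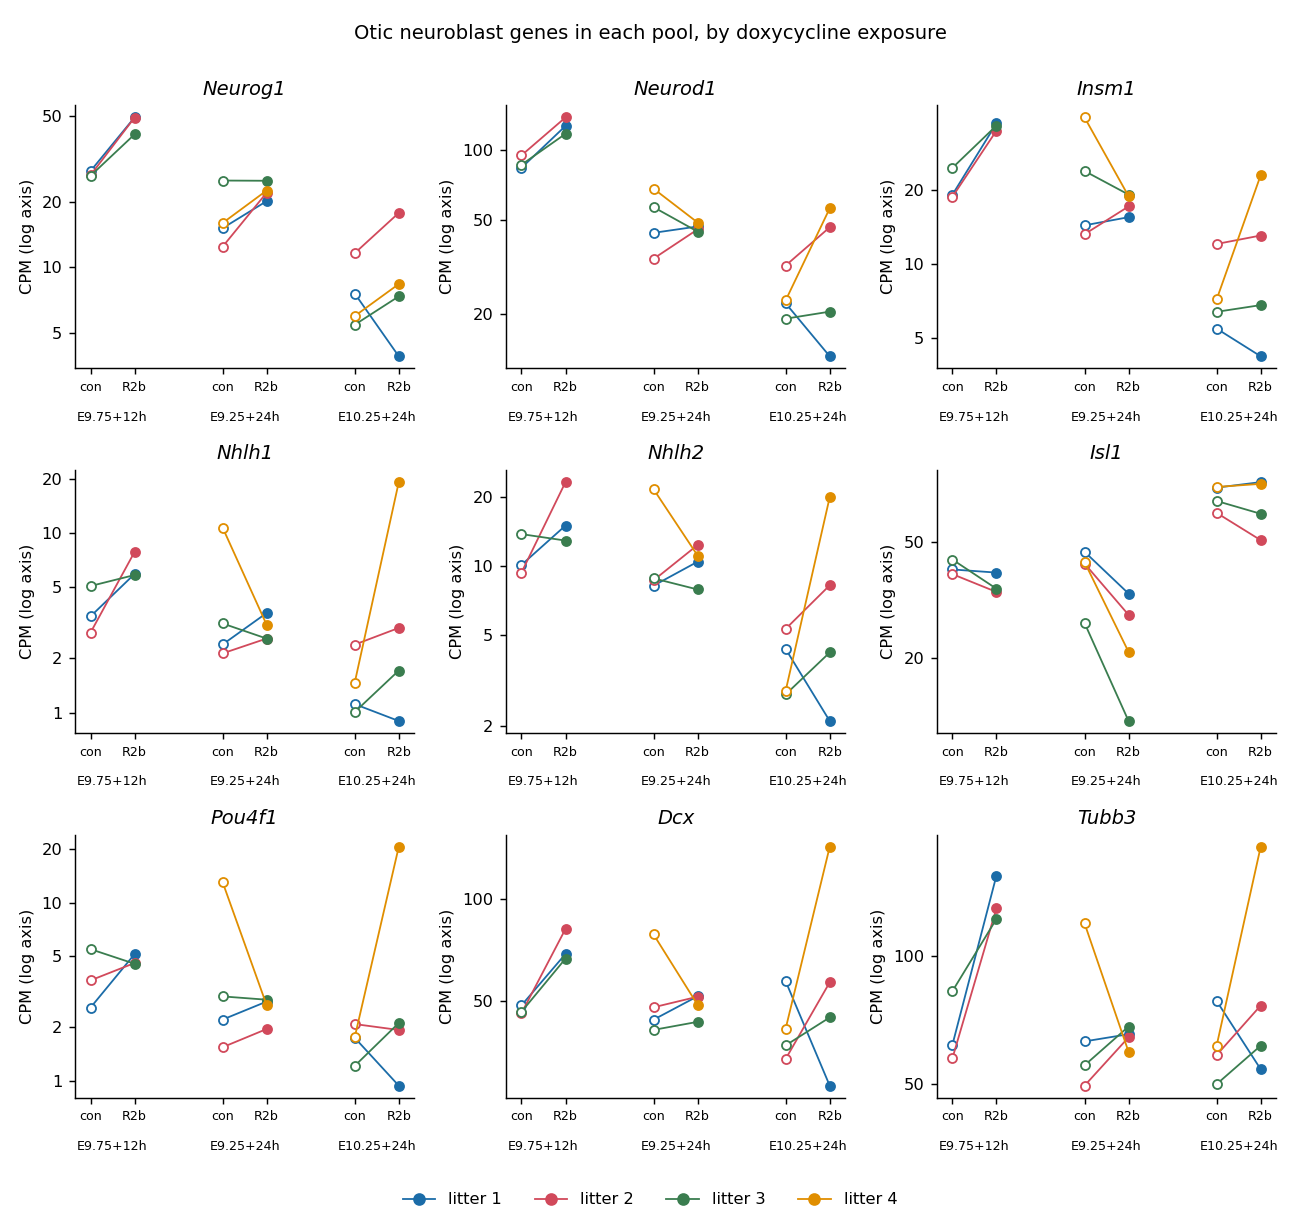
CPM of each gene in every pool, on a log axis, with con pools as open circles and R2b pools as filled circles. A line joins the pools of 1 litter, and colours are litters 1 to 4. At E9.75+12h the lines of Neurog1, Neurod1, Insm1, Dcx and Tubb3 rise in all 3 litters, while at E9.25+24h the con pool and at E10.25+24h the R2b pool of litter 4 lie far above the rest in Nhlh1, Nhlh2 and Pou4f1.

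Markers of other cell types at E9.75+12h were compared as summed CPM per pool. The neural crest and glia list, with 6 of 7 genes measured, summed to 611 to 628 CPM in con and 742 to 798 CPM in R2b pools. Of its 5 genes tested, 4 had a log2 fold change above 0 and 1 was called, as higher. Over all genes 20.0% were called in either direction. The 10 otic epithelium markers summed to 2481 to 2730.1 CPM in con and 2749.7 to 3651 CPM in R2b pools, with 4 called as higher and 2 as lower. A sum is weighted to the most abundant genes of its list. The mesenchyme sums (93.7 to 324 CPM in con, 148 to 304 CPM in R2b) and the blood sums (20.6 to 762 and 91.3 to 115 CPM) overlapped. The part of the differences in these sums in the rise of the neuroblast genes was not tested.

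When exposure began at E9.25 and lasted 24 hours, the same genes showed no difference that passed the unpaired test, while the fit with the litter as a block called Isl1 as lower and Neurog1 as higher. Without the block, none of the 9 genes was called by edgeR, against 15.6% of all 14979 genes. At an unadjusted p under 0.05 stood 1 of the 9, Isl1, against 32.2% of all genes. DESeq2 called 1 of the 9, Isl1, and 21.6% of all genes. Isl1 was lower in the R2b pool of each litter and Neurog1 was higher in 3 of 4 litters. For the 7 other genes the sign of the unpaired fold change turned on 1 control pool. Values below are for litters 1, 2, 3 and 4 in that order.

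Neurog1 stood at 15.2, 12.5, 25.2 and 16.0 CPM in con and 20.2, 22.1, 25.1 and 22.6 CPM in R2b pools. The con pool of litter 3 was as high as any R2b pool, and the other con pools lay below all of them. The log2 fold change was 0.39 (SE 0.19, adjusted p 0.203). With the litter as a block it was 0.42 (SE 0.11, adjusted p 0.0139). Leaving out only the con pool of litter 3 gave 0.63 (SE 0.12, adjusted p 0.0191), where Neurog1 was the 1 gene of the 9 called beside 9.19% of all genes. Leaving out both pools of litter 3 gave 0.57 (SE 0.12, adjusted p 0.0369), beside 7.42% of all genes.

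Isl1 stood at 46.3, 42.2, 26.3 and 42.7 CPM in con and 33.2, 28.1, 12.1 and 20.9 CPM in R2b pools. Within each litter the R2b pool was lower, by a log2 difference of -0.48, -0.59, -1.11 and -1.02, but litter 3 had low values in both pools and the groups overlapped. The unpaired log2 fold change was -0.74 (SE 0.29, adjusted p 0.115). With the litter as a block it was -0.78 (SE 0.10, adjusted p 0.000225), and in that fit 2 of 9 genes passed, Isl1 as lower and Neurog1 as higher, beside 40.6% of all genes. DESeq2 gave an adjusted p of 0.0375 for Isl1, and 1 fit of all 22 libraries gave 0.0303, beside 13.3% of all genes called.

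The differentiation genes were highest in the con pool of litter 4. In litter 3 the R2b pool also lay below the con pool for each of them. Neurod1 was at 44.3, 34.4, 57.0 and 68.4 CPM in con and 47.1, 45.8, 44.8 and 49.0 CPM in R2b pools, a narrow R2b range inside a wide con range. Insm1 was at 14.4, 13.2, 23.9 and 39.6 CPM in con and 15.5, 17.2, 19.2 and 18.9 CPM in R2b pools. Nhlh1 was at 2.39, 2.14, 3.13 and 10.7 CPM in con and 3.58, 2.58, 2.58 and 3.08 CPM in R2b pools. In both of these genes the con pool of litter 4 exceeded each R2b pool, in Nhlh1 with the 3 other con pools inside or below the R2b range. Nhlh2 repeated this pattern, at 8.19, 8.64, 8.81 and 21.6 CPM in con and 10.4, 12.3, 7.88 and 11.1 CPM in R2b pools.

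The same pool also held the highest values of Pou4f1, Dcx and Tubb3. Pou4f1 stood at 2.20, 1.54, 2.97 and 13.0 CPM in con and 2.78, 1.95, 2.85 and 2.65 CPM in R2b pools, so that litter 4 alone held the con mean above the R2b mean. Dcx stood at 44.0, 47.9, 41.0 and 78.7 CPM in con and 51.6, 51.5, 43.3 and 48.7 CPM in R2b pools. Tubb3 stood at 62.9, 49.4, 55.2 and 119.8 CPM in con and 65.4, 64.3, 68.2 and 59.4 CPM in R2b pools. In Dcx and Tubb3 the R2b pool was the higher one in litters 1, 2 and 3 and the lower one in litter 4.

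With all 8 libraries the log2 fold changes of these 7 genes were negative, -0.13 for Neurod1, -0.37 for Insm1, -0.64 for Nhlh1, -0.18 for Nhlh2, -0.95 for Pou4f1, -0.12 for Dcx and -0.16 for Tubb3. Without the con pool of litter 4 all 7 turned positive, at 0.046, 0.044, 0.21, 0.29, 0.19, 0.14 and 0.20. Their SEs were 0.14, 0.20, 0.21, 0.15, 0.26, 0.083 and 0.086, so those of Neurod1, Insm1 and Pou4f1 exceeded the values. None of the 9 genes passed in that fit, beside 12.9% of all genes. With litter 4 left out and the litter as a block, a fit added after seeing the data, Tubb3 was at 0.24 (SE 0.061, adjusted p 0.00718), Neurog1 at 0.39 (SE 0.13, adjusted p 0.0267) and Isl1 at -0.69 (SE 0.10, adjusted p 0.000204). These were the 3 of 9 genes that passed in that fit, beside 41.2% of all genes.

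The con pool of litter 4 that held these high values was also rich in transcripts of cells from outside the epithelium. Its mesenchyme markers summed to 1118 CPM, against 70.8 to 263 CPM in the 3 other con pools, and its blood markers to 1598 CPM. The R2b pool of the same litter was similar in mesenchyme, at 1010.1 CPM, with blood markers at 625 CPM, and its neuroblast genes summed to 236 CPM, against 411 CPM in the con pool. The part of these cells in the neuronal values was not tested.

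**Figure D3:**
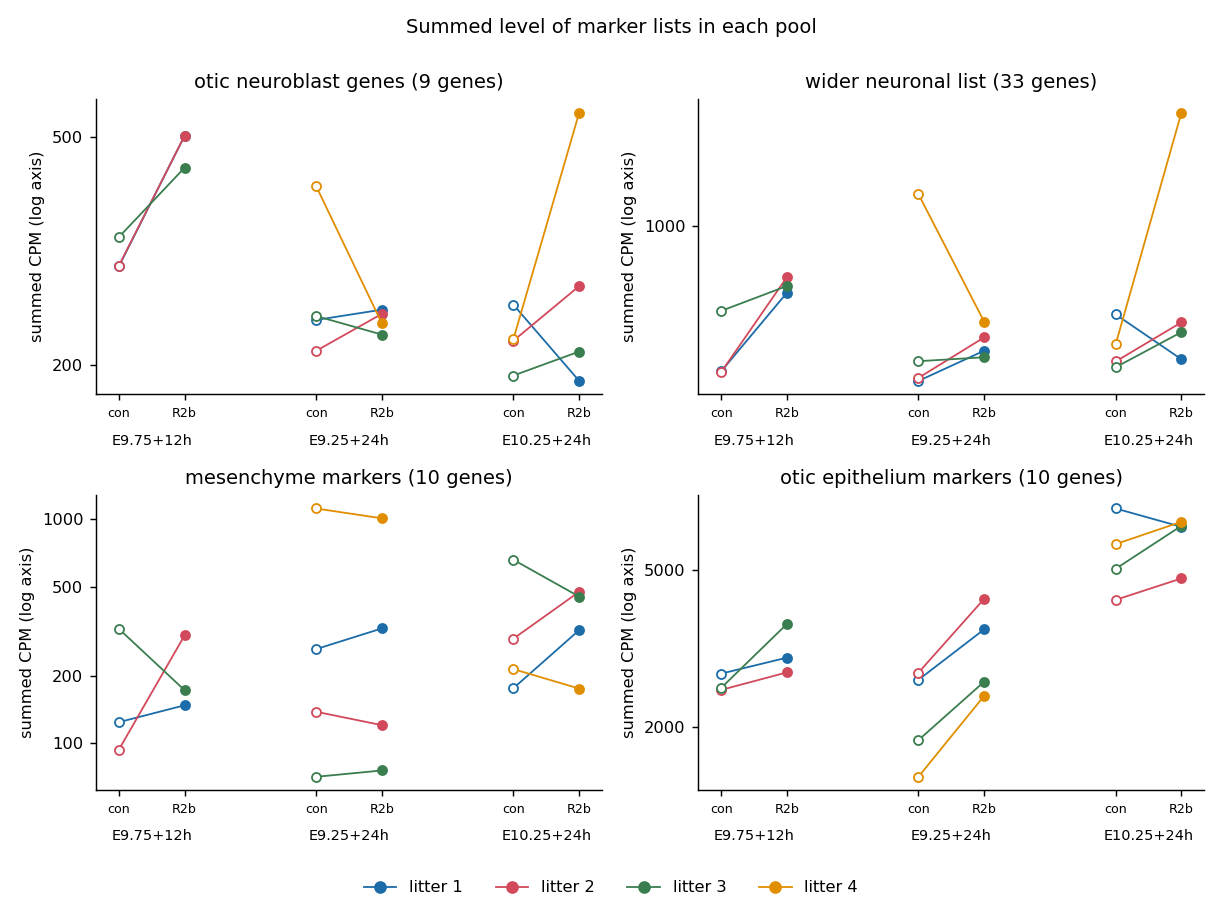
Summed CPM per pool, on a log axis, of the neuroblast genes, the wider neuronal list, mesenchyme markers and otic epithelium markers. Open circles are con pools, filled circles R2b pools, and lines join the pools of a litter. The con pool of litter 4 at E9.25+24h is high in neuronal and mesenchyme sums, and the R2b pool of litter 4 at E10.25+24h is high in both neuronal sums.

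With exposure from E10.25 to E11.25 no gene of the lineage, and no gene in the table, passed the edgeR test of all pools by label. Of 15203 genes tested 0 were called (0%), 1.15% had an unadjusted p under 0.05, and DESeq2 called 0 as well. Of the 9 neuroblast genes 1, Nhlh1, had an unadjusted p under 0.05. Fold changes of the 9 genes ranged from -0.07 for Isl1 to 2.05 for Nhlh1 on the log2 scale, each with an adjusted p of 0.9999. The transgene reads did not pass in this edgeR fit either, at 1.69 for Ighg1 and 0.98 for Fgfr2 (adjusted p 0.9999 each). The fit keeps litter 1, whose transgene reads go against its labels, so it cannot decide whether the neuroblast genes differed. With the litter as a block and without litter 1, edgeR called 614 genes and none of the 9. The R2b pool of litter 4 was the highest library for 7 of the 9. Values are again for litters 1 to 4, by label.

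Neurog1 stood at 7.58, 11.6, 5.44 and 5.97 CPM in libraries labelled con and 3.89, 17.8, 7.36 and 8.38 CPM in libraries labelled R2b. The library labelled R2b was higher in litters 2, 3 and 4 and lower in litter 1, the pair whose transgene reads go against the labels. Neurod1 stood at 22.1, 32.1, 19.0 and 22.8 CPM by the con label and 13.1, 46.8, 20.4 and 56.4 CPM by the R2b label, with the same direction in each litter. Isl1, at 77.0, 63.0, 69.3 and 77.4 CPM in con and 80.4, 50.8, 62.6 and 79.3 CPM in R2b libraries, had overlapping groups and differed most in litter 2, by a log2 difference of -0.31.

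Nhlh1 stood at 1.11, 2.39, 1.01 and 1.47 CPM in con and 0.898, 2.96, 1.71 and 19.1 CPM in R2b libraries. Nhlh2 stood at 4.33, 5.30, 2.74 and 2.84 CPM in con and 2.10, 8.22, 4.18 and 19.9 CPM in R2b libraries. In both, the R2b pool of litter 4 was the highest library of the exposure, followed by the R2b pool of litter 2. Pou4f1 was the most extreme, at 1.74, 2.08, 1.21 and 1.75 CPM in con and 0.936, 1.93, 2.11 and 20.6 CPM in R2b libraries. Its 7 other libraries spanned 0.936 to 2.11 CPM.

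Insm1 stood at 5.44, 12.1, 6.37 and 7.16 CPM in con and 4.19, 13.1, 6.78 and 23.0 CPM in R2b libraries. Dcx stood at 57.2, 33.7, 36.9 and 41.4 CPM in con and 28.0, 56.8, 44.7 and 143 CPM in R2b libraries. Tubb3 stood at 78.4, 58.4, 49.8 and 61.5 CPM in con and 54.1, 76.5, 61.5 and 182 CPM in R2b libraries. For each of these the highest library was again the R2b pool of litter 4, and the groups overlapped.

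Without that pool the log2 fold change of Nhlh1 moved from 2.05 to 0.31, that of Nhlh2 from 1.18 to 0.34, that of Pou4f1 from 1.91 to -0.03, that of Dcx from 0.69 to 0.028, that of Tubb3 from 0.59 to 0.046, that of Insm1 from 0.60 to 0.047 and that of Neurod1 from 0.51 to 0.16. Neurog1 went from 0.29 to 0.34, and it turned to -0.23 without the R2b pool of litter 2. Leaving out only the library labelled con of litter 3, which held transgene reads, gave 0.16 for Neurog1 (SE 0.47). In that fit 0 of 9 genes passed, beside 0 of 15300 genes. Without litter 1 and with the litter as a block, Neurog1 was at 0.52 (SE 0.11, adjusted p 0.0552) and Dcx at 0.96 (SE 0.26, adjusted p 0.0908), and 0 of 9 genes passed, beside 4.04% of all genes. The values of the others in that fit were 0.66 for Neurod1, 0.64 for Insm1, 1.71 for Nhlh1, 1.36 for Nhlh2, -0.13 for Isl1, 1.59 for Pou4f1 and 0.77 for Tubb3, with adjusted p from 0.116 to 0.329. Without litters 1 and 4, a fit added after seeing the data, the values of the 8 genes other than Isl1 lay between 0.11 and 0.63, Isl1 was at -0.22, and adjusted p ranged from 0.541 to 0.969.

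**Figure D4:**
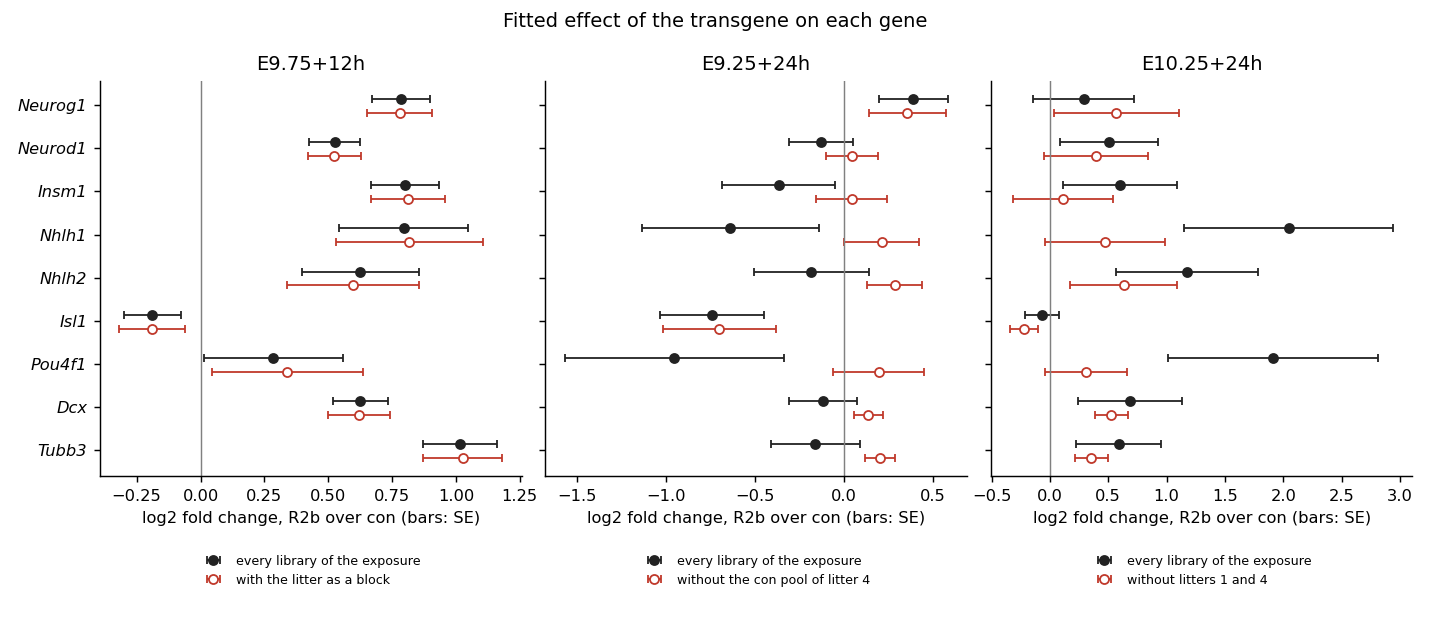
Fitted log2 fold change of R2b over con for each gene, with bars of 1 SE, in the 3 exposures. Black points use every library of the exposure and red open points the fit named under each panel. At E9.75+12h both fits give nearly the same values, at E9.25+24h the values of 7 genes move from below to above 0, and at E10.25+24h the 2.05 of Nhlh1 moves to 0.47.

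Seen litter by litter, the median log2 difference of the 9 genes was positive in every litter after the 12-hour exposure. In both 24-hour exposures its sign differed between litters. In the later of these, only litter 1 had a negative median, and its transgene reads go against its labels. At E9.75+12h the R2b pool was the higher one for 8, 8 and 6 of 9 genes in litters 1 to 3, with median log2 differences of 0.77, 0.88 and 0.44. At E9.25+24h it was the higher one for 8, 8, 2 and 1 of 9 genes, with medians of 0.23, 0.37, -0.16 and -1.01. At E10.25+24h, by label, it was the higher one for 1, 7, 8 and 9 of 9 genes, with medians of -0.75, 0.39, 0.30 and 1.67. The genes share the same pools, so these counts describe litters and are not 9 separate observations.

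**Figure D5:**
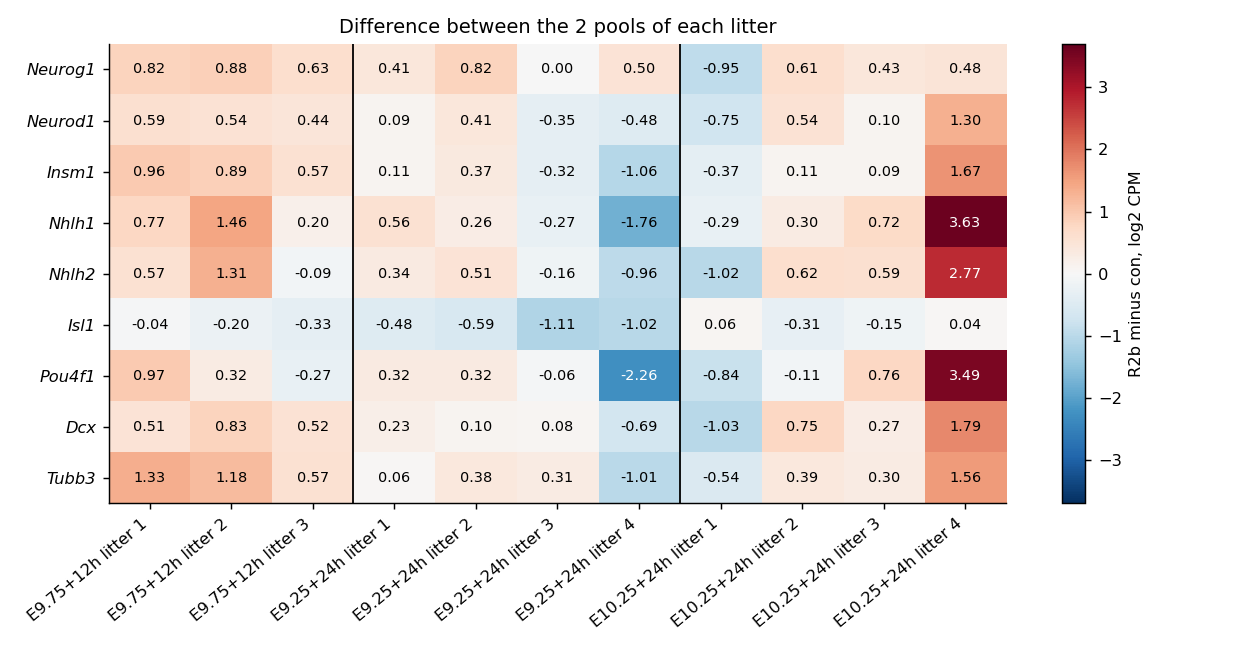
Log2 CPM of the R2b pool minus that of the con pool for each gene (vertical) and litter (horizontal), coloured red where R2b is higher and blue where it is lower. Litter 4 holds the extreme values at both 24-hour exposures, from -2.26 for Pou4f1 at E9.25+24h to 3.63 for Nhlh1 at E10.25+24h, and Isl1 is negative in all 7 litters of the first 2 exposures.

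Whether the effect of the transgene itself differed between exposures was tested in 1 fit of all 22 libraries. No neuroblast gene and none of 15688 genes passed in either contrast by edgeR (0%), while 12.2% of genes had an unadjusted p under 0.05 for E9.25+24h against E9.75+12h and 8.57% for E10.25+24h against E9.25+24h. DESeq2 called 99 and 73 genes, and no neuroblast gene among the 6 and 9 to which it gave an adjusted p. The second contrast keeps litter 1 of E10.25+24h, whose transgene reads go against its labels. The transgene reads did not pass in it, at -11.8 for Ighg1 and -2.49 for Fgfr2 (adjusted p 0.0838 and 0.117 by edgeR). It therefore cannot decide whether the effect on the neuroblast genes differed between the 24-hour exposures. The effect on Tubb3 was lower at E9.25+24h than at E9.75+12h by a log2 difference of -1.16 (SE 0.47, p 0.0218, adjusted p 0.334 by edgeR), and -0.79 without the con pool of litter 4. For Neurog1 that difference was -0.38 (SE 0.46), and for Isl1 -0.54 (SE 0.33). Between the 24-hour exposures, the difference of Isl1 was 0.67 (SE 0.31, p 0.0404, adjusted p 0.556), those of Nhlh1 and Pou4f1 were 2.68 and 2.86, and without the R2b pool of litter 4 the latter were 0.95 and 0.93. Without litter 1 of E10.25+24h the differences between the 24-hour exposures were 2.92 for Nhlh1, 3.23 for Pou4f1 and 0.61 for Isl1, with adjusted p from 0.603 to 0.9999. With the litter as a block in edgeR, no neuroblast gene and no gene of the table passed in either contrast. The adjusted p of Isl1 in that fit was 0.133 for the first contrast and 0.115 for the second. In the unpaired edgeR test of all pools, the calls at E9.75+12h were absent from the 24-hour exposures. That absence is therefore not shown to be a difference between exposures. With the litter as a block in edgeR, Neurog1 was called as higher at E9.25+24h too (adjusted p 0.0139).

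The balance between successive steps was described by ratios within each pool. The log2 ratio of Neurod1 to Neurog1 was lower in the R2b pool in each of 3 litters at E9.75+12h, by -0.23, -0.34 and -0.20, and in each of 4 litters at E9.25+24h, by -0.32, -0.41, -0.34 and -0.98. At E10.25+24h, by label, it was higher in litters 1 and 4 and lower in litters 2 and 3. The transgene reads of litter 1 go against its labels. The mean log2 ratio of Tubb3 to Neurog1 in con pools was 1.30 ± 0.30 (SD, n = 3) at E9.75+12h, 2.02 ± 0.72 (SD, n = 4) at E9.25+24h and 3.06 ± 0.50 (SD, n = 4) at E10.25+24h. In R2b pools it was 1.55 ± 0.13, 1.52 ± 0.13 and 3.35 ± 1.0, within the spread of the con pools at each exposure. Without litter 1 it was 2.96 ± 0.56 in con and 3.20 ± 1.18 in R2b pools at E10.25+24h (SD, n = 3). No test was attached to the ratios.

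Over the 22 libraries, with levels centred within each exposure, 7 of the 9 genes had similar profiles. Pearson's r of a gene with the mean of the others was 0.95 for Nhlh1 and for Nhlh2, 0.90 for Insm1 and for Neurod1, 0.88 for Dcx, and 0.87 for Tubb3 and for Pou4f1. It was 0.39 for Neurog1 and -0.066 for Isl1. The libraries include both genotypes and the 2 pools rich in neuronal transcripts, so r is a description. Of 12799 other genes, the closest to the mean profile were Mreg and Srrm4, both with r of 0.96, followed by Xkr7 at 0.93 and Soga3 and Ppp1r14a, both at 0.92. Srrm4 encodes a neuronal splicing regulator and was at 21.3 CPM in the con pool of litter 4 at E9.25+24h, where the other con pools reached 12.3 CPM.

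Other genes of neuronal differentiation rose alongside at E9.75+12h. Of 36 listed genes 31 could be tested, and 10 rose and 1 fell, beside 20.0% of all genes called in either direction, with a median log2 fold change of 0.57. Mapt, which encodes the microtubule protein tau, was 0.93 (SE 0.21, adjusted p 0.0123) on the log2 scale. Srrm4 was 0.72 (SE 0.17, adjusted p 0.0148), Ina, an intermediate filament gene of young neurons, 1.37 (SE 0.33, adjusted p 0.0154), and Dpysl3, a gene of axon growth, 0.38 (SE 0.10, adjusted p 0.0180). Elavl2, an RNA-binding protein gene of neurons, was the one that fell, at -0.48 (SE 0.14, adjusted p 0.0375). With the litter as a block 6 of the list passed, with litter 1 left out 1 passed, and none passed without its con pool alone or in 1 fit of all libraries.

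At E9.25+24h none of 29 tested genes of that list passed, beside 15.6% of all genes, while the litter block called 1 as higher and 5 as lower, beside 40.6%. Their median log2 fold change without the block was -0.49. Without the con pool of litter 4, 5 rose, beside 12.9% of all genes called, and the median was 0.15. At E10.25+24h none of 30 passed, and 2 did with the block and without litter 1. The median of 0.76 became -0.035 without the R2b pool of litter 4, in a fit that keeps litter 1. It was 0.96 without litter 1, and 0.29 without litters 1 and 4, a fit added after seeing the data.

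Genes of the neurogenic domain of the otocyst and of its opponents moved in both directions. At E9.75+12h 4 of 18 tested genes rose and 2 fell, beside 20.0% of all genes called. Only 1 was called without litter 1, 3 without its con pool and 9 without the R2b pool of litter 2. Eya2, a transcriptional cofactor of the otic placode, rose by 0.99 (SE 0.13, adjusted p 0.00106), and Lfng, a glycosyltransferase that modifies Notch and marks the neurogenic domain, by 0.83 (SE 0.18, adjusted p 0.00852). Lmx1a, a homeobox gene of the dorsal and non-neurogenic otocyst, rose by 0.53 (SE 0.092, adjusted p 0.00334), and the Notch target Hey2 by 0.56 (SE 0.13, adjusted p 0.0127). Otx1, a homeobox gene of the ventrolateral otocyst, fell by 0.84 (SE 0.15, adjusted p 0.00343), and the Notch target Hes1 fell by 0.40 (SE 0.13, adjusted p 0.0459).

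At E9.25+24h 2 of these 18 genes rose and 3 fell, beside 15.6% of all genes called. The litter block called 7 as higher and 4 as lower, beside 40.6%. Without the block, 1 was called without litter 1, and 2, both lower, were called without litter 2 or without any single pool of litters 1 and 2. Without the R2b pool of litter 3, 3 were called, all lower. Otx1 fell by 1.50 (SE 0.14, adjusted p 0.000768) and Tbx1, an antagonist of otic neurogenesis, fell by 0.37 (SE 0.10, adjusted p 0.0333). Fgf3, a ligand of FGFR2b, rose by 0.94 (SE 0.23, adjusted p 0.0258) and Lmx1a by 0.60 (SE 0.16, adjusted p 0.0372). Fgf10, the other ligand, was at 42.4 to 63.3 CPM in con and 50.2 to 73.9 CPM in R2b pools and did not pass. None of the 18 passed at E10.25+24h in the 8 libraries, while 3 were called as higher and 1 as lower with the block and without litter 1, beside 4.04% of all genes.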

How the data were processed

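RNA from pooled otocyst epithelia was sequenced from poly(A)-selected stranded libraries, per the labels' protocols. The authors deposited 1 table of read counts per gene, whole numbers that are not normalized. Novoalign 2.08.03 and the build mm10 are named in the submitters' processing notes; the counter, annotation and gene filter are not given in the sources used here, and no gene of the table has under 108 counts in all. Of 24 columns, 22 were used and 2 that name no sample were not; 2 of the 24 labelled samples, both of litter 4 at E9.75+12h, were not analysed here. Symbols came from GENCODE M21 (15522 of 15736 genes), as did exon lengths and positions, and upstream sequences from RefSeq, whose windows run from 250 bases before to 50 after the start; the 250 before it were searched.

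Each exposure was fitted separately in edgeR 4.0.16 (R 4.3.3, limma 3.58.1) with filterByExpr, TMM scaling and the quasi-likelihood test, and p-values were adjusted over all genes by Benjamini-Hochberg with a threshold of 0.05. Fitted fold changes used a prior count of 0.125 and log2 CPM a prior count of 2, and each SE was derived from the F statistic. The fits were tested on simulated data. The difference between exposures was tested in 1 fit of all libraries. Alternatives were DESeq2 1.42.0, no filter, other scaling, the litter block and leaving out pools or litters. Replicates are litters from separate pregnant females.

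The pairing comes from the labels, which pool both genotypes from the same pregnant female. Deviations of the con and R2b pools of a litter from their group means correlated at -0.12, -0.24 and -0.26 at E9.75+12h, at 0.42, 0.49, 0.77 and 0.75 at E9.25+24h, and at -0.11, 0.39, 0.31 and 0.29 at E10.25+24h.

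The genes and lists were chosen with earlier results of these data known. All the neuroblast genes measured were named, along with at most 4 higher and 4 lower called genes of each wider list by adjusted p and the 5 genes closest to their mean profile. Fgfr2, Ighg1, Stmn2, Fgf10, Oc90 and Pax2 were named after their values were seen. Some genes of the wider lists are not reported here.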

Additional observations from a re-analysis of the deposited data

Results flagged for a closer look

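Among 36 sets of 4 pools (9 genes, both genotypes, the pair of 24-hour exposures), 5 had a single pool far from the other 3; chance flags about 1 in 20 such groups, and the genes share pools, so the 5 are not independent. In the con pools of E9.25+24h, Nhlh1 was at 10.69 CPM in litter 4 and at 2.14 to 3.13 CPM in the others. Nhlh2 was at 21.61 CPM in that pool and at 8.19 to 8.81 CPM in the others. Pou4f1 was at 13.04 CPM there and at 1.54 to 2.97 CPM in the others. In the R2b pools of E10.25+24h, Nhlh1 was at 19.14 CPM in litter 4 and at 0.898 to 2.96 CPM in the others, and Pou4f1 was at 20.62 CPM against 0.936 to 2.11 CPM.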

How the results depend on the processing

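At E9.75+12h, 6 of 9 neuroblast genes were called, 5 with the litter block, 1 in 1 fit of all libraries and 2 to 7 when pools or litters were left out. DESeq2 called 7 of them, beside 3541 of 14206 genes. Over all genes edgeR called 2973 there, 1775 with the litter block, 4560 in 1 fit of all libraries and 434 to 4583 with pools left out. Of the wider neuronal list it called 11, 6, 0 and 0 to 13. At E9.25+24h, 0 neuroblast genes were called, 2 with the paired litter block, 1 in 1 fit of all libraries, 1 by DESeq2 and 0 to 1 with pools left out. All-gene calls were 2335, 6086 with the block and 322 to 2289 with pools left out, and the wider list gave 0, 6 with the block, 1 in 1 fit, 1 by DESeq2 and 0 to 5. With the block and without litter 4, chosen after seeing the data, 3 neuroblast genes, 6161 genes in all and 12 of the wider list were called, and Neurod1 (0.041), Insm1 (0.037), Nhlh1 (0.19), Nhlh2 (0.24), Pou4f1 (0.19), Dcx (0.14) and Tubb3 (0.24) changed sign. At E10.25+24h the block without litter 1 called 614 genes and 2 of the wider list, and 0 neuroblast genes were called with any pool left out. DESeq2 called 99 and 73 genes for the differences between exposures, and edgeR 0 to 24 for the first with pools left out. Log2 fold changes that changed sign with a pool left out ran at E9.75+12h from -0.0095 to 0.64 for Pou4f1. Those of E9.25+24h ran from -0.27 to 0.046 for Neurod1, -0.55 to 0.044 for Insm1, -0.95 to 0.21 for Nhlh1, -0.38 to 0.29 for Nhlh2, -1.24 to 0.19 for Pou4f1, -0.23 to 0.14 for Dcx, -0.30 to 0.24 for Tubb3 and -0.38 to 0.19 for the median of the 9. At E10.25+24h they ran from -0.23 to 0.56 for Neurog1, -0.16 to 0.043 for Isl1 and -0.030 to 2.31 for Pou4f1, and the difference of Neurog1 between the 24-hour exposures from -0.078 to 0.15. The causes were not tested. Pou4f1 and Nhlh1 had the fewest counts, 24 to 460 per library, and whether depth limits their tests was not tested.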
